A study of Rattus norvegicus with 6 samples.

Results

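The genes described here belong to the p53 pathway: the feedback inhibitors of p53 and the targets through which it halts the cell cycle, starts apoptosis, repairs DNA and adjusts metabolism. They were taken from a list of 32 gene symbols and read out of a deposited table of 37209 symbols. Of the 32 genes, 31 stood in the table under their own symbol and 1, Tigar, under a name built from its RefSeq gene number. RNA was sequenced from primary bone marrow mesenchymal stem cells (BMSCs) of rat femur, stromal cells of the marrow from which bone, cartilage and fat can arise. The cells are labelled WT and were grown to near confluence, and 3 libraries were made from cells given cigarette smoke extract (CSE) at 3% during 6 h and 3 from control cells held in serum-free medium over the same time. The labels leave unsaid what medium carried the CSE, and whether libraries within a group stem from different cultures or animals. The p-values therefore reflect the spread among these libraries alone, which could be technical. The study title names ferritinophagy and skeletal development, and the comparison described here asks how genes of the p53 pathway differed between exposed and unexposed cells.

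The transcription factor p53 is made continuously and destroyed as quickly by the ubiquitin ligase MDM2. DNA damage and other stresses free it from MDM2, whereupon it activates genes of arrest, repair and death, and among them Mdm2 itself, which closes a feedback loop. Several genes of the list also answer to other stress and growth signals, the GADD45 genes, Btg2 and the polo-like kinase genes Plk2 and Plk3 among them. Being listed does not make a gene an established p53 target, and a change in its RNA does not by itself show p53 activity. In mesenchymal progenitors p53 is known to restrain proliferation and osteoblast formation.

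Library totals lay between 15958621 and 22589327 counts. Levels are given as counts per 1000000 counts of the TMM-scaled library (CPM), a scale that corrects for depth but not for gene length, so levels are compared between groups for 1 gene and never between genes. A gene was called higher or lower where edgeR's quasi-likelihood test of CSE against control gave an adjusted p below 0.05 over all 13390 genes tested. Stromal markers were abundant, with all 12 tested and a summed level of 31751 to 33102 CPM with CSE and 32637 to 35763 CPM in the control, most of it Col1a1. Beneath that sum 4 were called higher and 5 lower, among them Vcam1 (5.71-fold higher, at a low level), Cd44 (2.13-fold higher) and Cxcl12 (4.49-fold lower). Macrophage markers were present too: 11 of 12 were tested, Cd163 was listed at 0, and their summed level was 1757 to 1811 CPM with CSE and 1589 to 1635 CPM in the control. Most of that sum was Lyz2, at 1414 CPM with CSE and 1175 CPM in the control, while of the 11 tested 2 were called higher and 4 lower, with a median log2 fold change of −0.11, and Cd14 was 2.74-fold lower. Endothelial markers summed to 7.12 to 9.04 CPM with CSE against 11.0 to 12.0 CPM in the control and adipocyte markers, nearly all of it Fabp4, to 41.2 to 45.4 CPM against 67.8 to 77.4 CPM. Markers of erythroid cells, B lymphocytes, T and NK cells and granulocytes each summed to at most 0.757 CPM in any library. The part of these other cells in the changes below was not tested, and in such bulk samples fewer cells of a type and less RNA per cell cannot be told apart.

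Most p53 pathway genes were higher with CSE, led by Gadd45a, Plk3, Tp53inp1, Btg2 and Cdkn1a, while the death receptor gene Fas and the damage sensor gene Ddb2 were lower. Of the 30 genes that passed the filter on low counts, 18 were higher, 7 were lower and 5 did not pass the threshold. Across the whole table the threshold was passed by 73.9% of genes, 36.3% higher and 37.5% lower, so a call by itself sets few genes apart in these data. At least 2-fold changes were called in 12 genes, 10 upward and 2 downward, against 25.2% of all genes tested, 10.7% upward and 14.4% downward. The median log2 fold change was 0.48 over the 30 genes and −0.02 over all genes tested. Scaling by total counts alone shifted the median of all genes by −0.19 and upper-quartile scaling by −0.14. Under total counts alone 16 p53 pathway genes were called higher and 11 lower, beside 3749 higher and 6319 lower of 13390 genes tested. The medians were then 0.29 over the 30 genes and −0.21 over all genes tested. In 18 of the 30 genes every CSE library lay above every control library and in 9 every CSE library lay below, against 37.2% and 38.6% of all genes tested, or 75.8% in either direction. All counts of the 32 genes together made up 0.313% to 0.325% of the CSE libraries and 0.193% to 0.195% of the control libraries. Cdkn1a and Gadd45a held 29.0% to 30.3% of that sum with CSE and 7.86% to 7.92% in the control.

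**Figure D1:**
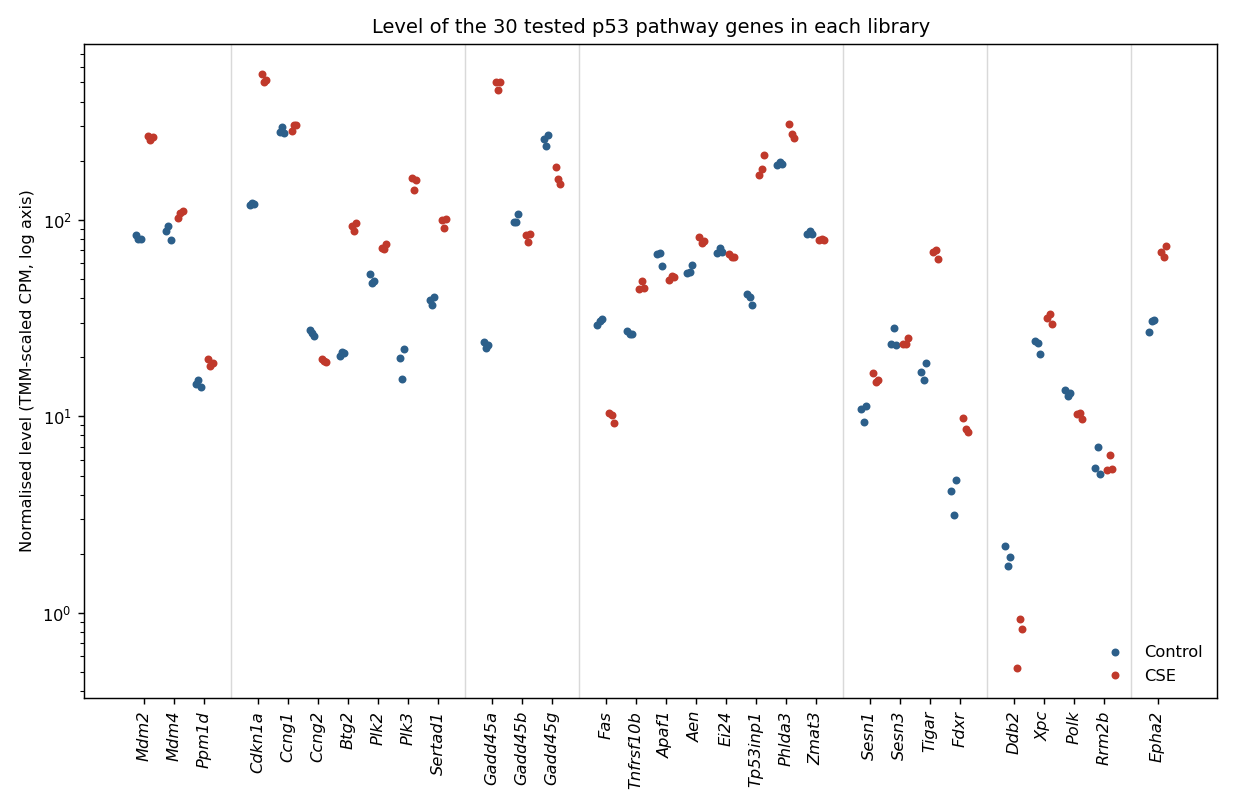
Normalised level (TMM-scaled CPM, log axis) of each of the 30 tested p53 pathway genes, with 1 point per library, blue for control and red for CSE, and vertical lines between groups of genes by role. The red points of Gadd45a, Plk3, Cdkn1a, Btg2, Tp53inp1, Tigar and Mdm2 lie far above the blue ones, those of Fas and Ddb2 lie below, and those of Ccng1, Sesn3 and Rrm2b overlap.

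**Figure D2:**
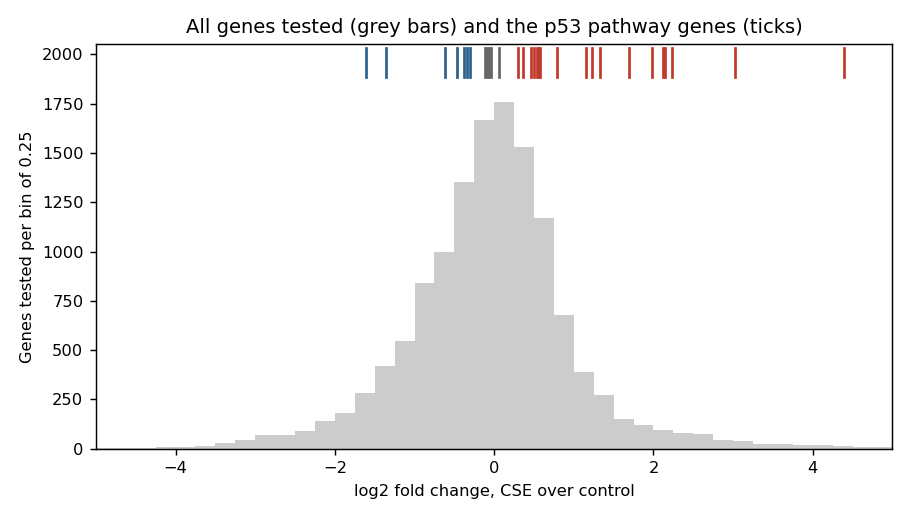
Histogram of log2 fold changes of CSE over control for the 13390 genes tested, with bins of 0.25, and ticks for the 30 p53 pathway genes (red higher, blue lower, grey not past the threshold). Of all genes, 83 lie outside the plotted range, and the ticks reach from −1.61 (Fas) to 4.40 (Gadd45a).

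All 3 genes of feedback inhibitors of p53 were higher with CSE, Mdm2 by far the most. Among all genes tested 36.3% were called higher, and so small a group says little beside that share. Mdm2, the gene of the ligase that marks p53 for destruction, stood at 268, 255 and 265 CPM with CSE and 84.1, 80.3 and 80.2 CPM in the control. Every CSE library lay well above every control library. The rise was 3.22-fold, a log2 fold change of 1.69 ± 0.048 (± SE, edgeR adjusted p = 4.2e-15), which placed Mdm2 at percentile 95.0 of the log2 fold changes of all genes tested. Mdm4, which encodes the partner that binds p53 without ligase activity of its own, had 102, 108 and 111 CPM with CSE and 88.1, 93.2 and 78.8 CPM in the control. The groups did not overlap, yet the change was only 1.23-fold (0.30 ± 0.061, edgeR adjusted p = 2.6e-04). In RefSeq's rat gene table for GRCr8, a build other than the one named for these data, Mdm4 overlaps Lrrn2, at 2 to 4 counts per CSE library and 0 in the control, and Pik3c2b, which was 3.07-fold lower at 1.24 to 1.91 CPM with CSE and 3.53 to 5.60 CPM in the control. The part of reads shared with them was not tested. Ppm1d, the gene of the WIP1 phosphatase that reverses damage signalling to p53, had 19.7, 18.0 and 18.6 CPM with CSE and 14.5, 15.3 and 14.1 CPM in the control and was 1.28-fold higher (edgeR adjusted p = 0.00121). The calls of Mdm4 and Ppm1d ended under scaling by total counts alone, at log2 fold changes of 0.11 (edgeR adjusted p = 0.110) and 0.17 (edgeR adjusted p = 0.0873), the highest adjusted p in ranges that began at 1.4e-06 and 7.7e-04 over the alternatives. The ratio of Mdm2 to Mdm4 counts within a library, in which library scaling cancels, moved 2.61-fold from a mean log2 ratio of −0.09 ± 0.12 to 1.30 ± 0.08 (SD, n = 3, exact permutation p = 0.1, the smallest that 3 libraries against 3 allow).

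Genes grouped here under cell cycle arrest were mostly higher, with 5 of 7 called upward, 1 downward and 1 not past the test. Among all genes tested 36.3% were called higher and 37.5% lower. The group is a label of the list used, and not every product in it, that of Sertad1 included, is established as halting the cycle. Cdkn1a, which encodes p21, the inhibitor of cyclin-dependent kinases through which p53 holds cells in G1, stood at 554, 505 and 514 CPM with CSE and 119, 122 and 121 CPM in the control. The lowest CSE library was thus several times the highest control library. Its rise was 4.36-fold (2.12 ± 0.049, edgeR adjusted p = 2.6e-16). Btg2, an antiproliferative gene that recruits mRNA deadenylases, had 92.7, 87.5 and 96.4 CPM with CSE and 20.2, 21.3 and 21.1 CPM in the control, also without overlap. It rose 4.41-fold (2.14 ± 0.063, edgeR adjusted p = 5.3e-15), close to Cdkn1a on the log2 scale. Sertad1, whose product binds CDK4 and E2F-linked regulators, had 100.3, 90.5 and 101 CPM with CSE and 39.0, 36.8 and 40.5 CPM in the control and rose 2.51-fold (1.33 ± 0.062).

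The polo-like kinase genes Plk2 and Plk3, which respond to stress and have roles in checkpoints, both rose but by very different amounts. Plk3 had 162, 142 and 159 CPM with CSE and 19.7, 15.5 and 22.0 CPM in the control, and Plk2 had 72.1, 70.7 and 75.4 CPM with CSE and 53.3, 47.5 and 49.1 CPM in the control. In both genes all CSE libraries lay above all control libraries. Plk3 rose 8.10-fold (3.02 ± 0.091, edgeR adjusted p = 7.9e-15) and Plk2 1.46-fold (0.54 ± 0.059, edgeR adjusted p = 2.3e-07). The within-library log2 ratio of Plk2 to Plk3 counts went from 1.40 ± 0.23 in the control to −1.09 ± 0.08 with CSE (SD, n = 3, exact permutation p = 0.1), a 5.60-fold shift towards Plk3.

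The atypical cyclin genes behaved otherwise. Ccng1, a p53 target whose product recruits a phosphatase to MDM2, had 284, 305 and 304 CPM with CSE and 281, 296 and 277 CPM in the control, and the groups overlapped. Its log2 fold change was 0.065 ± 0.048 (edgeR adjusted p = 0.23), and the sign turned under upper-quartile scaling (−0.072) and under total counts alone (−0.12, edgeR adjusted p = 0.0283, the lowest of a range up to 0.585 over all alternatives). Ccng2, which is linked to cell cycle exit and is also activated by FOXO factors, had 19.5, 19.1 and 18.9 CPM with CSE and 27.5, 26.5 and 25.5 CPM in the control. Each CSE library lay below each control library, and Ccng2 was 1.38-fold lower (−0.47 ± 0.073, edgeR adjusted p = 1.8e-05). The log2 ratio of Ccng1 to Ccng2 counts moved from 3.42 ± 0.07 to 3.95 ± 0.08 with CSE, without overlap (SD, n = 3, exact permutation p = 0.1).

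**Figure D3:**
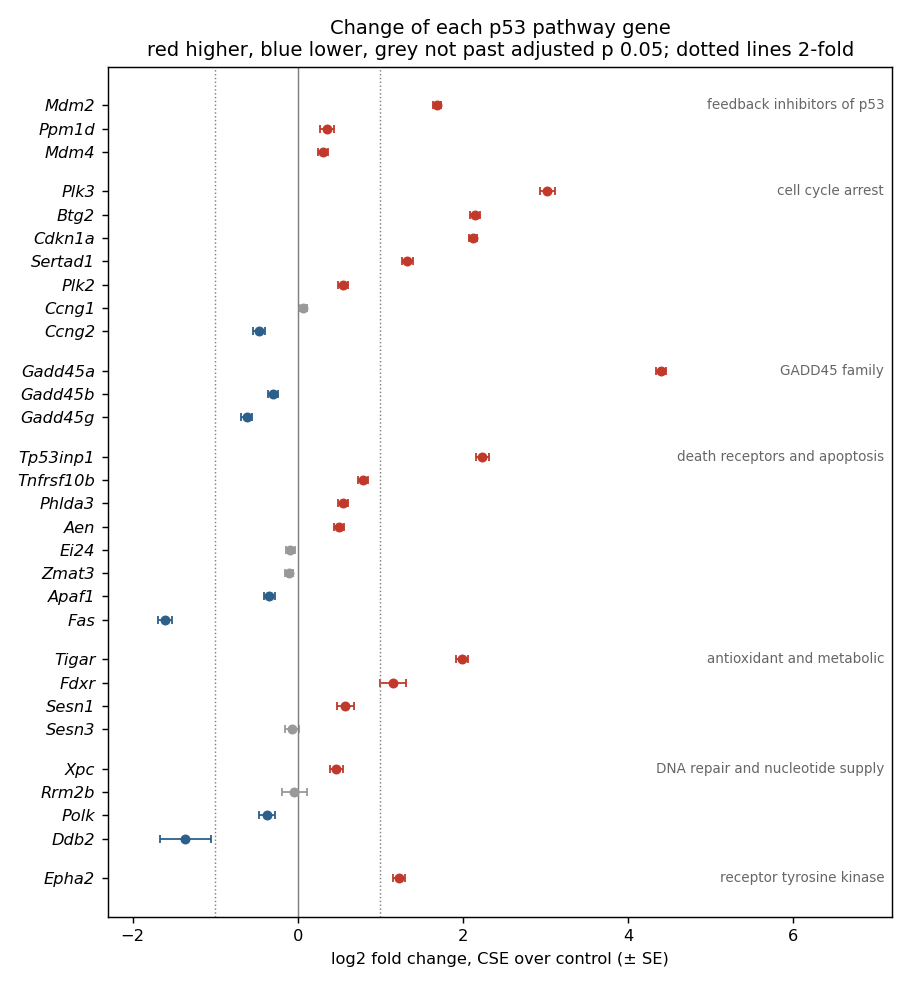
Log2 fold change of CSE over control for each tested p53 pathway gene, with bars of 1 SE on either side, ordered by role (red called higher, blue called lower, grey not past adjusted p 0.05) and dotted lines at 2-fold. Gadd45a at 4.40 and Plk3 at 3.02 stand farthest to the right, Fas at −1.61 and Ddb2 at −1.36 farthest to the left.

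The GADD45 genes encode small acidic proteins that bind stress kinases, PCNA and cyclin B1 complexes, and the family was divided. Gadd45a, the member classically tied to p53, stood at 501, 456 and 503 CPM with CSE and 24.0, 22.4 and 23.0 CPM in the control. It had the smallest p and the largest fold change of the 30 genes, 21.1-fold higher (4.40 ± 0.061, edgeR adjusted p = 4.3e-19), and lay at percentile 99.3 of all genes tested. Gadd45b, which responds to NF-kB and TGF-beta signals, had 83.5, 77.1 and 84.9 CPM with CSE and 97.0, 97.4 and 107 CPM in the control. Gadd45g, a further stress- and cytokine-induced member, had 185, 162 and 151 CPM with CSE and 258, 237 and 270.1 CPM in the control. In both, all CSE libraries lay below all control libraries. Gadd45b was 1.23-fold lower (−0.30 ± 0.058, edgeR adjusted p = 1.6e-04) and Gadd45g 1.54-fold lower (−0.62 ± 0.066, edgeR adjusted p = 1.7e-07). Under every scaling tried the 3 genes kept these directions and calls.

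Within a library, the log2 ratio of Gadd45a to Gadd45b counts went from −2.12 ± 0.11 in the control to 2.57 ± 0.01 with CSE, a 25.8-fold shift, and that of Gadd45a to Gadd45g from −3.46 ± 0.08 to 1.56 ± 0.16, a 32.4-fold shift (SD, n = 3, exact permutation p = 0.1 for each). The ratio of Gadd45b to Gadd45g moved far less, from −1.34 ± 0.06 to −1.02 ± 0.16 (exact permutation p = 0.1), with no overlap of the groups. Of the 7 pairs compared, Benjamini-Hochberg adjustment left every exact permutation p at 0.1. In the GRCr8 table Gadd45a overlaps a gene named LOC100912188 that the count table lists separately at 3.27 to 4.53 CPM with CSE and 0.807 to 1.41 CPM in the control. Reads shared by both cannot be told apart without a stated strand setting.

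**Figure D4:**
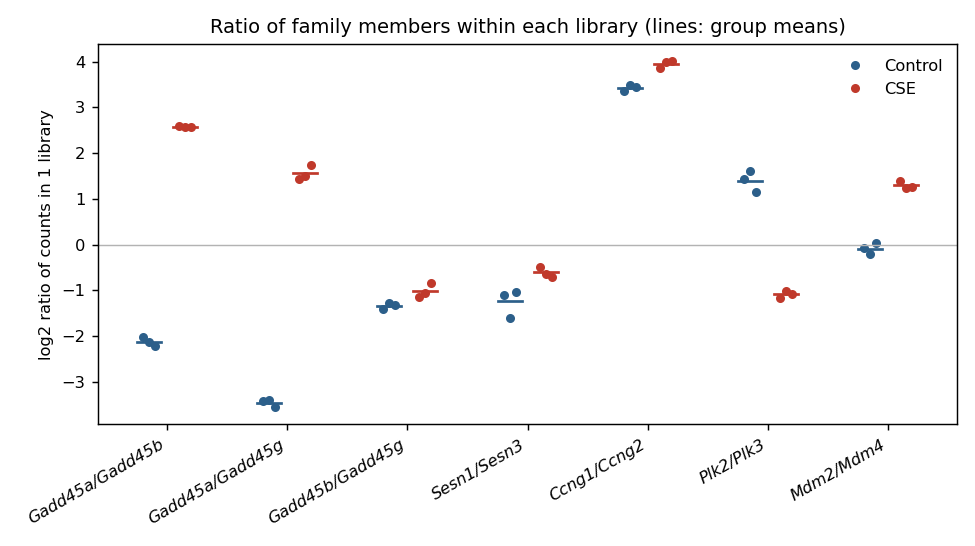
Log2 ratio of the counts of 2 genes of a family within each library, blue for control and red for CSE, with lines at the group means. Counts are not corrected for gene length, so the change of a ratio between groups is read and not its side of 0. The ratios of Gadd45a to Gadd45b and Gadd45g and that of Plk2 to Plk3 move farthest, and no pair overlaps between groups.

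The upstream sequences of the 3 GADD45 genes, which moved in opposite directions, and of Cdkn1a and Btg2, which rose with Gadd45a, are shown. They are the bases next to an annotated start, and sites farther upstream or deeper inside the gene were not searched. RefSeq promoter windows of GRCr8, 250 bases before to 50 bases after an annotated start, were found for 27 of the 32 genes. Only 1 window was used per gene, so positions are relative to that start, and any other annotated start was not searched. The 250 bases before the start are printed 5′ to 3′ on the gene's strand, with capitals marking matches, on either strand, to the p53 half-site consensus, the AP-1 motif TGANTCA, the cAMP response element TGACGTCA, the ATF4-CHOP motif TGATGNAA, the antioxidant response element core TGACNNNGC and the CCAAT box. In Gadd45a a CCAAT box and an antioxidant response element core share bases and form 1 run of capitals.
Gadd45a (chr4:97486800-97487049, minus strand): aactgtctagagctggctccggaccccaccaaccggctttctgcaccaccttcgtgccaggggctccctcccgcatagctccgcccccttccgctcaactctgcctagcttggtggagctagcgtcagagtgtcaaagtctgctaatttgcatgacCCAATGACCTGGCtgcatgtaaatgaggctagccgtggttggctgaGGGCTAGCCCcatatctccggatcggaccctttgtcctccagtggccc
Gadd45b (chr7:9430719-9430968, minus strand): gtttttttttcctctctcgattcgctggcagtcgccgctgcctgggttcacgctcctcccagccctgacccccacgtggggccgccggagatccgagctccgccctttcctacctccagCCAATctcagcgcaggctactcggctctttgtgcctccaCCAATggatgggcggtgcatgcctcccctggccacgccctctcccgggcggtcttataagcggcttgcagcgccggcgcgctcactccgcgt
Gadd45g (chr17:13530352-13530601, minus strand): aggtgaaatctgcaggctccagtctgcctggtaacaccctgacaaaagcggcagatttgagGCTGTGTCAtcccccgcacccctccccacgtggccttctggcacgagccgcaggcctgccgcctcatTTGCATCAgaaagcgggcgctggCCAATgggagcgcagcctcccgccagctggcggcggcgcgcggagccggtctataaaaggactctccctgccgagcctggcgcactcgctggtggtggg
Cdkn1a (chr20:7150682-7150931, plus strand): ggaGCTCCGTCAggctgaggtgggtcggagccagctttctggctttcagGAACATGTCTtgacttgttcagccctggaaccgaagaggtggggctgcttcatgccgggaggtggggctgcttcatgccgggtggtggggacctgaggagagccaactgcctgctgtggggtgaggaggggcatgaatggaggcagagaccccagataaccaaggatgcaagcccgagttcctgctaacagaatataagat
Btg2 (chr13:48087691-48087940, minus strand): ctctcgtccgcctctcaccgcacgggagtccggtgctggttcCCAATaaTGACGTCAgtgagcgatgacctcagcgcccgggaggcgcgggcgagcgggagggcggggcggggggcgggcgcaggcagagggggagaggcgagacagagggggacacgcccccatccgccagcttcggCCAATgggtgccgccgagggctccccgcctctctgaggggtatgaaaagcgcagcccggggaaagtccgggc
A p53 half-site stood in the windows of 6 of 27 genes, Aen, Ccng1, Cdkn1a, Ei24, Gadd45a and Sesn1, and in 7.89% of 27457 RefSeq promoter windows of the same 300-base length. Ccng1 and Ei24 of these did not pass the test of CSE against control, and the other 4 were called higher. A longer site of 2 half-sites, with a spacer of at most 13 bases and at most 1 mismatch, was found in Ccng1, Cdkn1a and Gadd45a, and in 0.561% of all windows. Cdkn1a held 2 such sites that share a half-site: the one with no spacer read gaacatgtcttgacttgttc and started at position −201, and the other started at position −223 with a spacer of 12 bases. The cAMP response element stood in Btg2, Epha2 and Plk2 (1.91% of all windows), all called higher. Beside this, 18 of the 30 p53 pathway genes tested and 36.3% of all genes tested were called higher. The AP-1 motif stood in Fas, called lower, and in Perp, not tested (7.33%), and the ATF4-CHOP motif in Gadd45g, called lower (3.82%). The antioxidant response element core stood in 5 genes (12.2%). Of these, Cdkn1a and Gadd45a were called higher, Ccng2 and Gadd45g lower, and Perp was not tested. The CCAAT box stood in 12 genes (37.7%), with calls in both directions. Whether a motif went with a direction was not tested. These matches are descriptions of letters in a short window, and no binding was measured.

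Death receptor and apoptosis genes were divided, with 4 called higher, 2 lower and 2 not past the test among the 8 of 10 that passed the filter. Among all genes tested 36.3% were called higher and 37.5% lower, so this split hardly sets the group apart. Fas, the gene of the receptor through which Fas ligand starts apoptosis, had 10.4, 10.2 and 9.30 CPM with CSE and 29.1, 30.7 and 31.3 CPM in the control. All CSE libraries lay at about the same low level, far below the control. Fas was 3.04-fold lower (−1.61 ± 0.084, edgeR adjusted p = 1.3e-11), the deepest fall of the 30 genes. Tnfrsf10b, the gene of the TRAIL death receptor DR5, moved the other way, with 44.6, 48.6 and 44.9 CPM with CSE and 27.3, 26.3 and 26.2 CPM in the control. It was 1.73-fold higher (0.79 ± 0.065, edgeR adjusted p = 5.8e-09) with no overlap. In the GRCr8 table Tnfrsf10b overlaps Rhobtb2, which was lower with CSE (−0.96 ± 0.14).

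Tp53inp1, whose product promotes p53 activity and autophagy, had 168, 181 and 213 CPM with CSE and 41.9, 40.5 and 36.9 CPM in the control. It rose 4.71-fold (2.24 ± 0.079, edgeR adjusted p = 6.5e-14), the third-largest rise after Gadd45a and Plk3. Phlda3, which encodes a p53-induced repressor of AKT, had 309, 274 and 262 CPM with CSE and 189.9, 198 and 191 CPM in the control and was 1.46-fold higher (0.55 ± 0.056). Aen, the gene of an apoptosis-enhancing nuclease, had 81.7, 76.0 and 78.2 CPM with CSE and 53.8, 54.3 and 58.9 CPM in the control and was 1.41-fold higher (0.50 ± 0.057). These genes showed no overlap between groups. Apaf1, the gene of the apoptosome scaffold, had 49.2, 51.9 and 51.4 CPM with CSE and 67.1, 67.9 and 58.5 CPM in the control and was 1.27-fold lower (−0.34 ± 0.064, edgeR adjusted p = 1.1e-04).

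Zmat3, which encodes an RNA-binding protein induced by p53, had 79.4, 80.3 and 78.9 CPM with CSE and 85.1, 87.7 and 84.6 CPM in the control. The groups lay apart, but at −0.11 ± 0.050 on the log2 scale Zmat3 missed the threshold (edgeR adjusted p = 0.0566), the nearest of the genes not called. Ei24, the gene of an endoplasmic reticulum protein with roles in autophagy, had 65.4 ± 1.26 CPM with CSE against 69.5 ± 2.35 in the control (SD, n = 3) and did not pass either (−0.089 ± 0.053, edgeR adjusted p = 0.144). Under total counts alone both were called lower, Zmat3 at −0.30 (edgeR adjusted p = 4.3e-05) and Ei24 at −0.28 (edgeR adjusted p = 1.8e-04), the lowest of ranges that reached 0.176 and 0.352 over all alternatives. Perp, the gene of a p53-induced desmosomal protein, was listed at 0 in all 6 libraries, which allows at most 0.142 to 0.177 CPM per library at 3 counts, a limit for counting error only. Triap1, an inhibitor of apoptosis, had 3, 2 and 0 counts with CSE and 5, 0 and 10 in the control, too few for the test.

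Among the antioxidant and metabolic targets, 3 of 4 were higher and none was called lower, beside 36.3% higher and 37.5% lower of all genes tested. Tigar, which encodes a phosphatase that diverts glucose into the pentose phosphate pathway and so supplies NADPH, had 68.3, 70.0 and 63.1 CPM with CSE and 16.8, 15.3 and 18.6 CPM in the control. It rose 3.96-fold (1.99 ± 0.076, edgeR adjusted p = 1.9e-13) without overlap. Fdxr, the gene of the mitochondrial ferredoxin reductase that serves steroid and iron-sulphur cluster synthesis, had 9.87, 8.67 and 8.37 CPM with CSE and 4.18, 3.16 and 4.74 CPM in the control and rose 2.23-fold (1.15 ± 0.16, edgeR adjusted p = 3.3e-06). The sestrins encode stress-induced inhibitors of mTORC1. Sesn1 had 16.7, 14.9 and 15.3 CPM with CSE and 10.9, 9.33 and 11.3 CPM in the control and was 1.49-fold higher (0.57 ± 0.10, edgeR adjusted p = 8.4e-05), whereas Sesn3 had 23.2, 23.2 and 25.0 CPM with CSE and 23.4, 28.3 and 23.1 CPM in the control. The Sesn3 groups overlapped and the gene did not pass (−0.066 ± 0.085, edgeR adjusted p = 0.493). It was called lower under upper-quartile scaling (−0.20, edgeR adjusted p = 0.0385) and total counts alone (−0.25, edgeR adjusted p = 0.0127), while its adjusted p reached 0.799 among the alternatives. The log2 ratio of Sesn1 to Sesn3 counts moved from −1.24 ± 0.31 to −0.61 ± 0.11 with CSE (SD, n = 3, exact permutation p = 0.1).

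DNA repair and nucleotide supply genes showed no common direction, with 1 called higher, 2 lower and 1 not past the test. Among all genes tested 36.3% were called higher and 37.5% lower. Xpc, which encodes the protein that first recognises bulky lesions in nucleotide excision repair, had 31.6, 33.0 and 29.7 CPM with CSE and 24.1, 23.5 and 20.7 CPM in the control and was 1.38-fold higher (0.47 ± 0.076, edgeR adjusted p = 2.9e-05). Ddb2, which encodes the partner damage sensor of that pathway, had 0.522, 0.927 and 0.827 CPM with CSE and 2.18, 1.74 and 1.92 CPM in the control. It was 2.57-fold lower (−1.36 ± 0.31, edgeR adjusted p = 7.3e-04), on 11 to 17 counts per CSE library and 33 to 38 per control library, so its size is the least precise of the 30. In the GRCr8 table Ddb2 overlaps Acp2, which also was lower (−0.43 ± 0.06) at 45.4 to 47.0 CPM with CSE and 59.2 to 64.6 CPM in the control. The part of reads shared between them in the change of Ddb2 was not tested. Polk, the gene of a polymerase that copies past lesions such as benzo[a]pyrene adducts, had 10.3, 10.4 and 9.72 CPM with CSE and 13.5, 12.8 and 13.2 CPM in the control and was 1.30-fold lower (−0.37 ± 0.099, edgeR adjusted p = 0.00257). Rrm2b, the p53-induced subunit of ribonucleotide reductase, had 5.31, 6.33 and 5.43 CPM with CSE and 5.48, 6.96 and 5.10 CPM in the control, with overlapping groups and no call (−0.042 ± 0.16, edgeR adjusted p = 0.819).

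The single receptor tyrosine kinase gene of the list, Epha2, whose product binds ephrin-A ligands, had 68.4, 64.7 and 73.6 CPM with CSE and 26.8, 30.4 and 31.0 CPM in the control. The groups lay apart and Epha2 rose 2.34-fold (1.23 ± 0.070, edgeR adjusted p = 4.2e-11). Of the genes in the list, Fdxr at 1.15 was the smallest rise past 2-fold and Tnfrsf10b at 0.79 the largest below it. On the other side of the threshold of adjusted p, Polk (0.00257) was the last gene called by edgeR and Zmat3 (0.0566) the first not called.

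Genes that control p53 were likewise more often higher than lower. Of 30 tested regulators and cofactors, 20 were higher, 7 lower and 3 not past the test, with a median log2 fold change of 0.47, beside 36.3% and 37.5% of all genes tested. Sirt1, a deacetylase of p53, rose 3.12-fold to 64.3 ± 5.58 CPM with CSE against 20.6 ± 1.45 in the control, Ppp1r13b, the gene of the p53 cofactor ASPP1, rose 3.32-fold and Usp10, a deubiquitinase of p53, 2.13-fold. The ubiquitin ligase gene Cop1 (−0.50 ± 0.047) and the damage kinase genes Atm (−0.56 ± 0.060) and Prkdc (−0.78 ± 0.084) were lower. The median of these regulators was close to that of the p53 pathway genes themselves, 0.48.

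Other genes listed as p53 targets, outside the list of 32, moved in both directions. Of 31 tested, 14 were higher, 14 lower and 3 not past the test, with a median of −0.08. Among all genes tested 36.3% were called higher and 37.5% lower. Under total counts alone 11 of the listed genes were called higher and 16 lower, beside 3749 higher and 6319 lower of 13390 genes tested. Under upper-quartile scaling 11 were higher and 15 lower, beside 4045 higher and 5990 lower of all genes tested. The stress hormone gene Gdf15 rose 161-fold, the ubiquitin ligase gene Trim35 3.86-fold and the third sestrin gene, Sesn2, 3.64-fold. Sesn2, which is also an ATF4 and NRF2 target, had the largest log2 fold change of the sestrins, 1.86 ± 0.063 against 0.57 ± 0.10 for Sesn1. The cell cycle repressor gene E2f7 (−1.77 ± 0.095), the spindle gene Ckap2 (−1.07 ± 0.073) and Trp53inp2 (−0.75 ± 0.053), the paralogue of Tp53inp1, were lower. Not every gene of this list, Trp53inp2 included, is an established p53 target, and whether p53 drove any of these changes was not tested.

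Cell cycle genes listed as targets of the DREAM repressor complex were lower almost throughout. No p21 protein, DREAM binding or cell cycle phase was measured, and the cause of the fall was not tested. Of 24 tested, 20 were lower, 2 higher and 2 not past the test, with a median of −0.96 and 11 at least 2-fold lower, beside 37.5% lower and 14.4% at least 2-fold lower among all genes tested. The mitotic genes Cdc20 (−1.70 ± 0.064), Cenpf (−1.61 ± 0.061) and Aurkb (−1.63 ± 0.070) had the smallest p among those that fell. The 2 that rose were Pcna (0.44 ± 0.047), the replication clamp gene that is itself a p53 target, and Cdc25a (0.40 ± 0.068), the gene of a phosphatase that activates cyclin-dependent kinases. All of these comparisons rest on the same 6 libraries, so the directions of the lists are not independent of each other.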

How the data were processed

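The deposited values are unnormalized read counts per gene symbol, whole numbers in 1 column per library. HISAT2 2.0.4 and Rnor_6.0 are named, without a role, per the submitters' processing notes. No source used here gives the counter, the strand setting or the annotation release. Columns were assigned by their names. Genes were filtered with filterByExpr, scaled by TMM and tested with edgeR 4.0.16 (quasi-likelihood F test, 2-sided, Benjamini-Hochberg over all genes) in R 4.3.3, with limma 3.58.1 and DESeq2 1.42.0 as alternatives. SE is the log2 fold change divided by the square root of F. The fit was tested on simulated data. Replicate libraries differed by a chi-square per degree of freedom of 3.24 to 5.74, more than counting error alone gives. Each was counted as 1 replicate, though this spread could be technical. The members and gene lists were chosen with earlier results of these data known, so no list was tested as a set. All 32 members are named or counted, and of each other list the 3 genes with the smallest adjusted p per direction. RefSeq promoter windows and overlaps come from GRCr8. Other scalings, filters, tests, a replicate block and leaving out each library were tried.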

Additional observations from a re-analysis of the deposited data

How the results depend on the processing

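Library scaling was the choice that mattered, and it shifted all genes tested and not the p53 pathway genes alone. Under total counts alone 11 p53 pathway genes were called lower and 16 higher, beside 6319 lower and 3749 higher of 13390 genes tested. The median log2 fold change of the p53 pathway genes was 0.29, beside −0.21 over all genes tested. Under upper-quartile scaling these medians were 0.35 and −0.15, and 5990 of all genes tested were called lower and 4045 higher. Ccng1 turned to −0.072 under upper-quartile scaling and −0.12 under total counts alone. Of the MTK1 cascade, 1 gene was called higher under each of these scalings and 6 lower under total counts alone. Size factors of DESeq2, the DESeq2 test, limma-voom and no filter left all 30 genes with their direction and side of the threshold, and a filter of 1 CPM did so except for Zmat3 (−0.11, edgeR adjusted p = 0.0454, called lower), with Map2k6 no longer tested. Leaving out 1 library gave 18 genes called higher each time and 7 to 8 lower, with Zmat3 called without control library 3 (−0.13, edgeR adjusted p = 0.0456). Of the genes not called, Rrm2b lay between −0.15 and 0.096 and Sesn3 between −0.13 and 0.026 when 1 library was left out, both turning positive without control library 2 and Rrm2b (0.012) also without CSE library 1. An added count of 5 left the within-family ratios within 1 SD of the values given. The replicate block left 18 genes higher and 7 lower and changed no call of the genes named. Deviations of same-numbered libraries correlated at −0.03 to 0.02, so the numbers were not taken as pairs, and no library correlated best with its own number. Depth limits Ddb2, Fdxr, Rrm2b and Triap1 the most.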

Other observations

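Genes linked to FOXO factors, which share Sesn1, Sesn3 and Ccng2 with the p53 pathway as known targets, moved in both directions. All 14 tested of 16 were called, 8 higher and 6 lower, beside 73.9% of all genes tested. The apoptosis gene Bcl2l11, which encodes BIM, rose 5.85-fold to 50.5 ± 3.99 CPM with CSE against 8.64 ± 1.17 in the control (SD, n = 3), the autophagy gene Atg14 rose 2.73-fold and the pseudokinase gene Trib1 2.28-fold. Txnip, the gene of the thioredoxin-binding arrestin, fell 3.94-fold, the muscle ubiquitin ligase gene Fbxo32 6.88-fold and the PI3K inhibitor gene Pik3ip1 4.33-fold.

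Genes of the kinase cascade that GADD45 proteins activate through MTK1 moved in both directions. Of 9 tested, 2 were higher, 3 lower and 4 not past the test, beside 36.3% higher and 37.5% lower among all genes tested. The split became 1 higher and 4 lower under upper-quartile scaling, beside 4045 higher and 5990 lower of 13390 genes tested. Under total counts alone it was 1 higher and 6 lower, beside 3749 higher and 6319 lower of all genes tested. Map3k4, the gene of MTK1, fell from 17.0 ± 0.512 CPM in the control to 6.28 ± 0.246 CPM with CSE (SD, n = 3, log2 fold change −1.43 ± 0.10), and the p38 gene Mapk14 fell from 100.7 ± 1.56 to 44.8 ± 3.68 CPM (−1.17 ± 0.061). Map2k6, the gene of a p38-activating kinase, was at 0.134 ± 0.0483 CPM with CSE against 0.839 ± 0.188 in the control (−2.57 ± 0.50), a low level. Map2k4 (0.62 ± 0.077) and Mapk8 (0.25 ± 0.070), both of the JNK branch, were higher, and the call of Mapk8 ended under upper-quartile scaling (0.11, edgeR adjusted p = 0.168) and total counts alone (0.06, edgeR adjusted p = 0.465, where the lowest among the alternatives was 4.8e-04).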
